A study of Mus musculus with 6 samples.

Results

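The genes described here were 10 genes that prime blood progenitors for lymphoid fates: Dntt, Il7r, Rag1, Rag2, Notch1, Satb1, Ebf1, Pax5, Ikzf1 and Tcf3. They were taken by name from the 36976 genes of the deposited FPKM table (fragments per kilobase of gene length, scaled to the library's total). The rule used no measured value, but earlier results of these data were known when the genes were listed. They took up 11 entries, since the name Ebf1 was carried by both the gene and a short entry typed as a pseudogene inside it. RNA-seq was performed on long-term (LT) CML stem cells, sorted from bone marrow as CD150+CD48-CD135- cells of the lineage-negative Sca-1+cKit+ fraction, with 3 libraries from Gdpd3+/+ and 3 from Gdpd3-/- tet-CML-affected mice. Mice of both groups were C57BL/6 and carried SCL-tTA and TRE-BCR-ABL1, so that withdrawal of doxycycline turned on the BCR-ABL1 oncogene under a promoter active in stem and progenitor cells. Cells were taken 5 weeks after this induction. Gdpd3, which encodes a lysophospholipase D, was disrupted by genome editing in the whole animal and not in blood cells alone. RNA of the Gdpd3+/+ libraries came from 22 male and 12 female mice, that of the Gdpd3-/- libraries from 5 mice of each sex. The labels do not say how the mice were divided among the libraries, so the p-values below measure the spread between these libraries, which may be partly technical. Each library held pooled cells, so that more cells of a type and more RNA per cell cannot be told apart.

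The first committed steps towards B and T cells start in multipotent progenitors, where low levels of lymphoid genes appear before the lineage is fixed. Ikzf1 (Ikaros) and Tcf3 (which encodes the E proteins E12 and E47) are transcription factors that act early, Satb1 organises chromatin in lymphoid progenitors, and Notch1 is the receptor that drives T cell specification. Il7r is the receptor chain for interleukin 7. Dntt encodes terminal deoxynucleotidyl transferase, which adds untemplated bases to antigen receptor joints, and Rag1 and Rag2 form the recombinase that cuts these genes. Ebf1 and then Pax5 commit cells to the B lineage. Dntt is often used to mark the earliest lymphoid-primed progenitors.

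The promoters of 3 of these genes are printed because Dntt was the member called different between genotypes, while Rag1 and Il7r were high in some Gdpd3-/- libraries and not in others. Each runs 5′ to 3′ from 250 bases before to 50 bases after the transcription start in RefSeq (build GRCm38.p6), and matches to the E-box CANNTG or to the Ikaros core GGGAA, on either strand, stand in capitals. The Dntt sequence lies on the plus strand at chr19:41029025-41029324, that of Rag1 on the minus strand at chr2:101649483-101649782 and that of Il7r on the minus strand at chr15:9529827-9530126.
Dntt: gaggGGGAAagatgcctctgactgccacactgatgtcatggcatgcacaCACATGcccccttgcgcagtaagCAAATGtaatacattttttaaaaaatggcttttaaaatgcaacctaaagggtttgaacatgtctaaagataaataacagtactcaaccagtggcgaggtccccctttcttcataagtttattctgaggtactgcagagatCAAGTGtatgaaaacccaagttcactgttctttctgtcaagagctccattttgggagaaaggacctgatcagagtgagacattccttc
Rag1: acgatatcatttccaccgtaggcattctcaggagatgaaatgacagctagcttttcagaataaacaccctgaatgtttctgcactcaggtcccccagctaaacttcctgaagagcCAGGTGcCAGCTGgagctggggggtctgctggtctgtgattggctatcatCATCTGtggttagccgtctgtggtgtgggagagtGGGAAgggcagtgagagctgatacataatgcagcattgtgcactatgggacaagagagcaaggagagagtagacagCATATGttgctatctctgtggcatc
Il7r: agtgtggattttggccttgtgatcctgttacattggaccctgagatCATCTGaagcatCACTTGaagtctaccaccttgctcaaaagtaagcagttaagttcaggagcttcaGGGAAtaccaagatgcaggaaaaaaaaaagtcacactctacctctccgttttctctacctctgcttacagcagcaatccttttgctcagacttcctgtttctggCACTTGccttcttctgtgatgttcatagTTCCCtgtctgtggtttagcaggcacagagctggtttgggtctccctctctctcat

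All 10 genes were found among the 32851 RefSeq promoters, Ikzf1 and Ebf1 with 2 each and Satb1 with 5. The Dntt promoter held 3 E-boxes and 1 Ikaros core, the Rag1 promoter 4 and 1, and the Il7r promoter 3 and 2. Such matches were common, since 72.3% of all promoters held at least 1 E-box and 62.7% at least 1 Ikaros core. The CpG content of the members' promoters varied widely. Dntt had 2 CpG dinucleotides, Rag1 and Rag2 had 3 each and Il7r had 1, against a median of 7 over all promoters. Notch1 and Pax5 had 23 each and Tcf3 had 25, and the 2 Ikzf1 promoters had 52 and 2. The 2 Ebf1 promoters had 9 and 17, and the 5 of Satb1 had 3 to 45. The TATAAA box, present in 13.6% of all promoters, was found in none of the members' windows. These matches describe letters only and are no measure of factor binding.

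Sequencing depth, recovered from the steps of the FPKM values, was 49753146 to 62762437 counts in the Gdpd3+/+ libraries and 21334716 to 36421439 counts in the Gdpd3-/- libraries, so that low values of the latter are the less certain. Gdpd3 itself was 7.30, 3.29 and 2.95 FPKM in the Gdpd3+/+ libraries and 0.110, 0.0129 and 0.681 FPKM in the Gdpd3-/- libraries, with no overlap and a limma adjusted p of 0.0588. The 7 long-term stem cell markers were present in every group, with sums of 182 to 200 FPKM in Gdpd3+/+ and 209 to 244 FPKM in Gdpd3-/- libraries and 0 of 7 called. The genes that the sort required were not called different between the groups: Ly6a (Sca-1) was 342 to 410 FPKM against 360 to 563, Kit 125 to 131 against 108 to 136, and Slamf1 (CD150) 10.1 to 11.7 against 5.41 to 13.2. Of the genes that the sort excluded, Flt3 (CD135) was 11.0, 10.6 and 9.80 FPKM in Gdpd3+/+ and 46.5, 37.8 and 36.8 FPKM in Gdpd3-/- libraries. Its transcript rose 3.86-fold by the ratio of means (limma adjusted p 0.00562), although the sort gated on the absence of its protein. Cd48 was 39.8 to 44.8 FPKM against 51.6 to 92.2 FPKM and was not called.

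Other marker genes moved with genotype too. The 10 skeletal muscle markers summed to 845 to 1252 FPKM in Gdpd3+/+ libraries and to 2077 to 15667 FPKM in Gdpd3-/- libraries. Of the latter, replicate 6 was the highest and replicate 7 the lowest. The median log2 fold change of these markers was 2.85, and 0 of the 10 were called. Without replicate 7, 10 of 10 were called higher, in a fit that called 9.83% of all genes higher. Replicate 7 had the least muscle signal of its group, but more than every Gdpd3+/+ library. The 8 neutrophil markers summed to 29031 to 31887 FPKM against 8062 to 13621 FPKM. All 8 had a negative log2 fold change (median -1.74), and 5 of the 8 were called lower. The 7 plasma cell markers summed to 2318 to 2975 FPKM against 1066 to 1926 FPKM. All 7 had a negative log2 fold change (median -0.99), and 2 were called lower. The 6 erythroid markers overlapped (1547 to 2590 against 798 to 2443 FPKM), with 0 called. No marker was at 0 in all 6 libraries. The part of these differences in the results below was not tested.

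**Figure D1:**
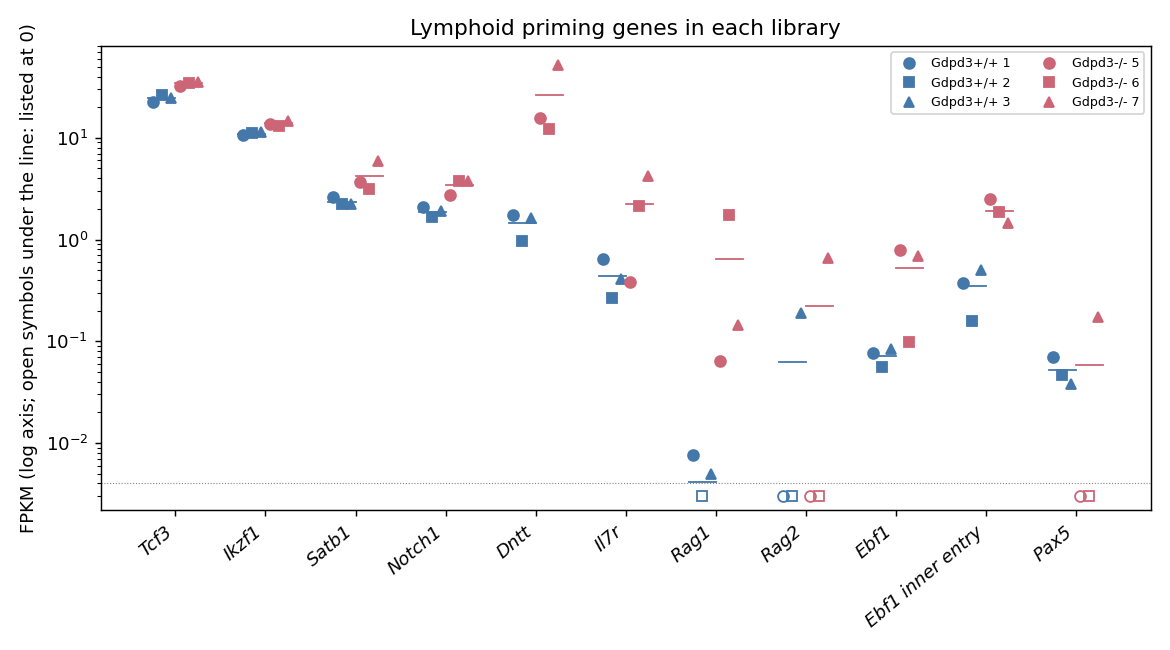
FPKM of each lymphoid priming gene in the 3 Gdpd3+/+ libraries (blue) and the 3 Gdpd3-/- libraries (red) on a log axis, with horizontal lines at the group means and open symbols for values listed at 0. The 3 Gdpd3-/- values lie above the 3 Gdpd3+/+ values for Tcf3, Ikzf1, Satb1, Notch1, Dntt, Rag1, Ebf1 and its inner entry, and overlap with them for Il7r, Rag2 and Pax5.

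Dntt was the member called higher in Gdpd3-/- libraries. Its level was 1.73, 0.966 and 1.63 FPKM in the Gdpd3+/+ libraries and 15.8, 12.1 and 51.7 FPKM in the Gdpd3-/- libraries (183, 129 and 212 counts against 716, 939 and 2768 counts). The lowest Gdpd3-/- value was thus above the highest Gdpd3+/+ value, and replicate 7 stood above both other Gdpd3-/- libraries. The means were 1.44 ± 0.414 FPKM (SD, n = 3) and 26.5 ± 21.9 FPKM (SD, n = 3), a ratio of 18.4. On log2(FPKM + 0.1), the difference was 3.85 with a standard error of 0.55 and a 95% interval of 2.53 to 5.16, and the adjusted p was 0.0335 (limma with an intensity trend, Benjamini-Hochberg over all genes tested). Dntt ranked 71 of the 24689 genes tested, counted from the largest increase. In this fit 1.71% of all genes were called in either direction and 1.09% were called higher in Gdpd3-/- libraries, and Dntt was 1 of the 11 entries called. Dntt lies at chr19:41103765-41134013 (mm9, plus strand), and no other gene of the annotation shares exon bases with it.

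The call for Dntt varied with the libraries and the model used. Its log2 fold change stayed between 3.22 and 4.26 under all 15 alternative settings, but its adjusted p in limma ranged from 0.00767 to 0.186 and passed 0.05 in 7 of the 15. Without replicate 7, the Gdpd3-/- library with the most Dntt, the difference was 3.22 with a limma adjusted p of 0.00767, in a fit that called 9.83% of all genes higher in Gdpd3-/- libraries. Without any single Gdpd3+/+ replicate it was 3.60 to 3.99 and the limma adjusted p was 0.174 to 0.186. Those fits called few genes in either direction: 0 of 24887 without replicate 1, 1 of 24855 without replicate 2 and 21 of 24862 without replicate 3. Limma voom on the recovered counts, which called 1.16% of all genes higher, gave Dntt 3.73 with an adjusted p of 0.0586.

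**Figure D2:**
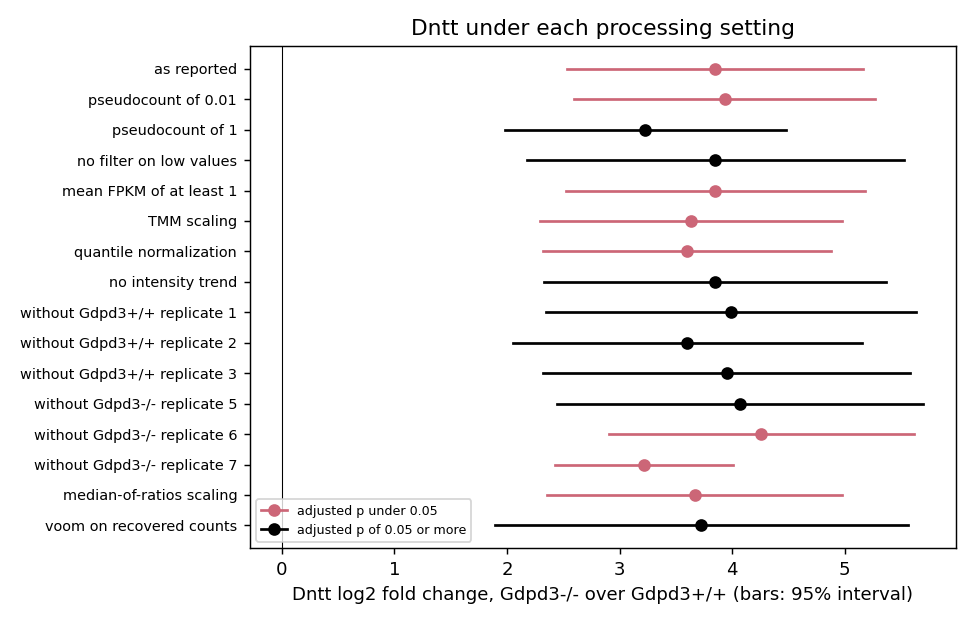
Log2 fold change of Dntt, Gdpd3-/- over Gdpd3+/+ libraries, with 95% intervals, as reported and under each of the 15 alternative settings. All 16 intervals lie above 0, and the points run from 3.22 to 4.26, with red marking an adjusted p under 0.05.

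The early transcription factors Tcf3 and Ikzf1 had the highest levels of the members in Gdpd3+/+ libraries. Tcf3 was 22.5, 26.6 and 24.6 FPKM in Gdpd3+/+ and 32.4, 34.5 and 35.8 FPKM in Gdpd3-/- libraries. Ikzf1 was 10.6, 11.1 and 11.4 FPKM against 13.7, 13.2 and 14.7 FPKM. Both genes were thus abundant in every library, with the Gdpd3-/- values above the Gdpd3+/+ values and little spread within a group. The log2 fold change was 0.48 (SE 0.11) for Tcf3, with a limma adjusted p of 0.0783. It was 0.32 (SE 0.11) for Ikzf1, with a limma adjusted p of 0.168, where the median over all genes tested was 0.24. Under TMM scaling (trimmed mean of M values), which brought that median to 0.04, Ikzf1 was at 0.11 and Tcf3 at 0.26. Tcf3 lies at chr10:79872259-79896392 (mm9, minus strand) and Ikzf1 at chr11:11585006-11672929 (mm9, plus strand).

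Satb1 and Notch1 stood at lower levels. Satb1 (chr17:51875512-51972615, mm9, minus strand) was 2.60, 2.24 and 2.24 FPKM in Gdpd3+/+ and 3.72, 3.11 and 5.94 FPKM in Gdpd3-/- libraries. Its groups did not overlap, and replicate 7 was again the highest. The log2 fold change of Satb1 was 0.78 (SE 0.28) with a limma adjusted p of 0.180, and without replicate 7 it was 0.51, with a 95% interval of -0.02 to 1.04. Notch1 was 2.10, 1.67 and 1.89 FPKM against 2.73, 3.77 and 3.77 FPKM, also without overlap. Its log2 fold change was 0.82 (SE 0.24) with a limma adjusted p of 0.121. Notch1 (chr2:26313423-26372183, mm9, minus strand) shares 1482 exon bases with 0610009E02Rik and Gm13568 on the other strand, and the library kit does not keep strand. These 2 genes held 53.3 to 76.7 and 28.2 to 40.8 counts per library.

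Il7r, the receptor chain through which interleukin 7 acts on lymphoid progenitors, split the Gdpd3-/- libraries. It was 0.639, 0.268 and 0.412 FPKM in Gdpd3+/+ and 0.380, 2.13 and 4.20 FPKM in Gdpd3-/- libraries (102, 54 and 81 counts against 26, 249 and 339 counts). Replicates 6 and 7 of Gdpd3-/- were above every Gdpd3+/+ library, while replicate 5 lay within their range. The log2 fold change was 1.68, with a 95% interval of -0.29 to 3.65 and a limma adjusted p of 0.282. Without replicate 5 it was 2.58, with a limma adjusted p of 0.0812, and without replicate 7 it was 0.997, with a limma adjusted p of 0.398. Il7r lies at chr15:9435916-9459631 (mm9, minus strand).

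The recombinase genes Rag1 and Rag2 are neighbours that are read towards each other, 5753 bases apart (Rag1 at chr2:101478439-101489658 and Rag2 at chr2:101464875-101472685, mm9). Rag1 had 2.5, 0 and 2 counts in the Gdpd3+/+ libraries and 9, 415 and 24 counts in the Gdpd3-/- libraries. In FPKM these were 0.00760, 0 and 0.00494 against 0.0638, 1.72 and 0.144. Rag1 was therefore at or under the level of 3 counts in every Gdpd3+/+ library, and its high value came from Gdpd3-/- replicate 6 alone. The fitted log2 fold change was 2.01 with a limma adjusted p of 0.264, and it ran from 0.57 to 6.06 over the alternatives, so no fold is given for it. Without Gdpd3-/- replicate 6, Rag1 fell under the filter on low values. Rag2 had 39.5 counts in Gdpd3+/+ replicate 3 and 57 in Gdpd3-/- replicate 7, and was listed at 0 in the other 4 libraries, including the one with the most Rag1. A level of 3 counts in those libraries would have been 0.0140 to 0.0411 FPKM, which covers counting error only. The log2 fold change of Rag2 was 0.47 (SE 0.96) with a limma adjusted p of 0.780, and it ran from 0.21 to 0.98 when 1 library was left out. Without Gdpd3-/- replicate 7 it fell under the filter on low values. Rag1 shares 80 and Rag2 shares 208 exon bases with B230118H07Rik, which was at 7.70 to 12.8 FPKM in all 6 libraries.

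The B lineage factors were low. Ebf1 was 0.0773, 0.0563 and 0.0836 FPKM in Gdpd3+/+ and 0.783, 0.0985 and 0.687 FPKM in Gdpd3-/- libraries (37.5, 34.5 and 50 counts against 163, 35 and 168.5 counts). Replicates 5 and 7 of Gdpd3-/- were high and replicate 6, the library with the most Rag1, lay just above the Gdpd3+/+ range. The log2 fold change was 1.59 (SE 0.68) with a limma adjusted p of 0.233. Ebf1 (chr11:44430819-44821593, mm9, plus strand) contains at its 5′ end the second entry of that name (chr11:44430819-44431275), whose 453 exon bases all lie in exons of Ebf1. This inner entry had 8.5, 4.5 and 14 counts in Gdpd3+/+ and 24, 30.5 and 16.5 counts in Gdpd3-/- libraries, or 0.377, 0.158 and 0.504 FPKM against 2.48, 1.85 and 1.45 FPKM. The inner entry's counts came to 87.1% of those of Ebf1 in Gdpd3-/- replicate 6 and to 9.79 to 28.0% in the other 5 libraries. Counts less those of the inner entry, which assumes that shared reads were divided equally, left Ebf1 29, 30 and 36 counts against 139, 4.5 and 152 counts. The separation of the groups for Ebf1 thus depended, in replicate 6, on the shared 5′ stretch. The inner entry had a log2 fold change of 2.24 (SE 0.46) with a limma adjusted p of 0.0665. Without Gdpd3-/- replicate 7 it was 2.41 with a limma adjusted p of 0.0369, in a fit that called 9.83% of all genes higher. The inner entry was called in only 1 of the 15 alternative settings.

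Pax5, which acts after Ebf1 in B cell commitment, showed no call. It had 12, 10 and 8 counts in the Gdpd3+/+ libraries and 0, 0 and 15 counts in the Gdpd3-/- libraries (0.0704, 0.0465 and 0.0381 FPKM against 0, 0 and 0.174 FPKM). A level of 3 counts in the 2 libraries at 0 would have been 0.0411 and 0.0241 FPKM. Replicate 7 was the single Gdpd3-/- library with Pax5 counts and exceeded every Gdpd3+/+ library. The log2 fold change was -0.11 (SE 0.58) with a limma adjusted p of 0.920. Its sign turned positive without replicate 5 or replicate 6 of Gdpd3-/- and with a pseudocount of 1. The log2 fold change was -1.19 with a pseudocount of 0.01 and -1.84 with voom. Without Gdpd3-/- replicate 7, Pax5 fell under the filter on low values. Pax5 lies at chr4:44544017-44724318 (mm9, minus strand).

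Set side by side, 7 of the 10 genes had every Gdpd3-/- library above every Gdpd3+/+ library, where 23.5% of the 24689 genes tested did. They were Tcf3, Ikzf1, Satb1, Notch1, Dntt, Rag1 and Ebf1, and for Ebf1 this rested on the shared stretch in replicate 6. Rag1, with a mean of 0.00418 FPKM in Gdpd3+/+ libraries, passed the filter on low values only through its Gdpd3-/- libraries. Its place among the 7 therefore carries no weight. For each of the 7 genes the two-sided exact permutation test on mean FPKM gave p = 0.1, the smallest value that 3 against 3 libraries allow. It gave 0.3 for Il7r and 1 for Rag2 and for Pax5. The median log2 fold change over the 11 entries was 0.82, beside 0.24 over all genes tested, and 6 of the 11, the inner entry of Ebf1 among them, had an unadjusted limma p under 0.05, as did 22.2% of all genes tested. This count was 3 of 11 under TMM scaling, where 4882 of all 24596 genes tested had such a p. Under quantile normalization it was 3 of 11, beside 4766 of 24689 genes. Under median-of-ratios scaling it was 4 of 11, beside 4904 of 24601 genes. The members did not peak in the same library. Of the 3 Gdpd3-/- replicates, replicate 7 was the highest for Dntt, Il7r, Satb1, Ikzf1, Tcf3, Rag2 and Pax5, replicate 6 for Rag1 and replicate 5 for Ebf1 and its inner entry, and Notch1 was 3.77 FPKM in both replicates 6 and 7.

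**Figure D3:**
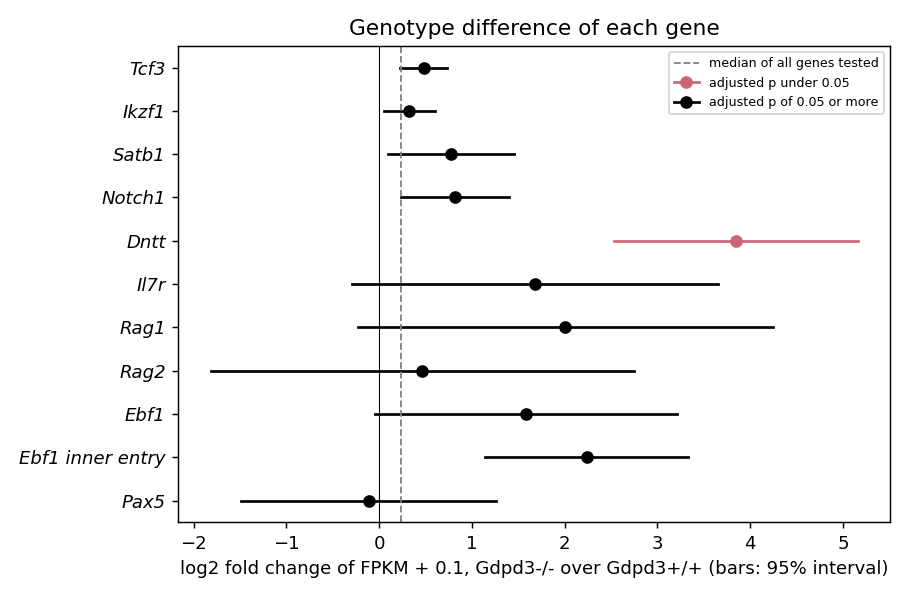
Log2 fold change of FPKM + 0.1 for each member, Gdpd3-/- over Gdpd3+/+ libraries, with 95% intervals and a dashed line at 0.24, the median of all genes tested. Dntt at 3.85 is the entry with an adjusted p under 0.05, and the intervals of Il7r, Rag1, Rag2, Ebf1 and Pax5 include 0.

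The order of the levels also differed between the groups. In Gdpd3+/+ libraries it ran Tcf3, Ikzf1, Satb1, Notch1, Dntt, Il7r, the inner entry of Ebf1, Ebf1, Rag2, Pax5 and Rag1 by group mean. Tcf3, Ikzf1, Satb1 and Notch1 were each above the next gene in all 3 libraries. The ranges of Notch1 (1.67 to 2.10 FPKM) and Dntt (0.966 to 1.73 FPKM) overlapped, as did those of Il7r (0.268 to 0.639 FPKM) and the inner entry (0.158 to 0.504 FPKM). In Gdpd3-/- libraries Dntt came to lie between Tcf3 and Ikzf1 by its mean, with a range of 12.1 to 51.7 FPKM that took in both. Satb1 (3.11 to 5.94 FPKM), Notch1 (2.73 to 3.77 FPKM) and Il7r (0.380 to 4.20 FPKM) overlapped there.

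Genes that act with the members gave the context. These lists were chosen with earlier results of these data known, so their counts beside the share of all genes are no test. Of 14 early lymphoid progenitor genes, 3 were called higher and 0 lower, where 1.09% of all genes were called higher. The median log2 fold change of the list was 0.59, beside 0.24 over all genes tested. Flt3, the cytokine receptor of lymphoid-primed progenitors, rose by 1.93 on the log2 scale (limma adjusted p 0.00562). Cd34, a progenitor surface sialomucin, was 105 to 111 FPKM in Gdpd3+/+ and 187 to 221 FPKM in Gdpd3-/- libraries (limma adjusted p 0.0204). Cd27, a receptor of the TNF receptor family, was 34.3 to 36.4 FPKM against 51.9 to 65.8 FPKM (limma adjusted p 0.0391). Ly6d, a marker of B-biased lymphoid progenitors, went the other way, at 128 to 143 FPKM against 46.1 to 99.4 FPKM, and was not called (limma adjusted p 0.0953).

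Later B lineage genes moved in both directions. Of 18 listed, 1 was called higher and 1 lower, with a median log2 fold change of -0.61. Cd72, a B cell surface coreceptor, rose by 0.77 on the log2 scale (limma adjusted p 0.0469). It was not called under TMM scaling, quantile normalization, median-of-ratios scaling or voom. Irf4, a factor of late B cells and plasma cells, was 7.57 to 9.84 FPKM in Gdpd3+/+ and 2.10 to 3.23 FPKM in Gdpd3-/- libraries (limma adjusted p 0.0275). The 2 genes of the list with the highest mean, Cd79b and Btk, were 39.5 to 39.9 against 50.2 to 58.7 FPKM and 35.5 to 40.6 against 27.7 to 47.5 FPKM, and neither was called.

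Among 20 T and NK lineage genes, 16 could be tested, 1 was called higher and 0 lower, with a median of -0.05. The gene called higher was Gzma, a granzyme of cytotoxic cells, at 0.150, 0.560 and 0.330 FPKM against 10.6, 4.88 and 3.81 FPKM (limma adjusted p 0.0321). Ptcra, the pre-T cell receptor chain and a direct Notch target, was listed at 0 in all 6 libraries. Nkg7, a granule protein gene of cytotoxic cells with the highest mean of the list, was 382 to 457 FPKM against 149 to 313 FPKM, and Lck, a T cell kinase gene, was 3.89 to 4.51 FPKM against 3.99 to 10.1 FPKM. Neither passed the test.

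The partners of single members were tested the same way. Of 17 Notch pathway genes tested, 2 were called higher and 0 lower, where 1.09% of all genes were called higher. Both encode Fringe glycosyltransferases that modify Notch receptors, and neither was called under TMM or median-of-ratios scaling. Mfng was 17.4 to 20.6 FPKM in Gdpd3+/+ and 34.0 to 46.8 FPKM in Gdpd3-/- libraries (limma adjusted p 0.0321), and Lfng 5.45 to 6.26 FPKM against 9.47 to 11.3 FPKM (limma adjusted p 0.0487). Adam10, a protease that cuts the receptor, had the highest mean of the list at 48.0 FPKM and was not called. Of 11 IL-7 signalling genes 1 was called higher, Jak3, the kinase bound to the common gamma chain. It was 19.2 to 22.4 FPKM against 33.6 to 40.4 FPKM (limma adjusted p 0.0362), and was not called under TMM or median-of-ratios scaling. Jak1, the kinase bound to the Il7r chain, was 53.2 to 55.1 FPKM against 51.1 to 55.8 FPKM. None of the 10 E protein and Ikaros family genes (median 0.20) was called. The same held for 12 genes of V(D)J recombination, listed for end joining or for assisting the recombinase (median -0.04). In the former list Id2, an inhibitor of E proteins, was 41.7 to 48.6 FPKM against 29.98 to 43.5 FPKM, and Tcf12, an E protein gene, 10.9 to 12.8 FPKM against 9.08 to 14.8 FPKM. In the latter Hmgb2 was 244 to 265 FPKM against 192 to 198 FPKM and Hmgb1 157 to 168 FPKM against 150 to 169 FPKM, both encoding DNA-bending proteins that assist the recombinase.

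**Figure D4:**
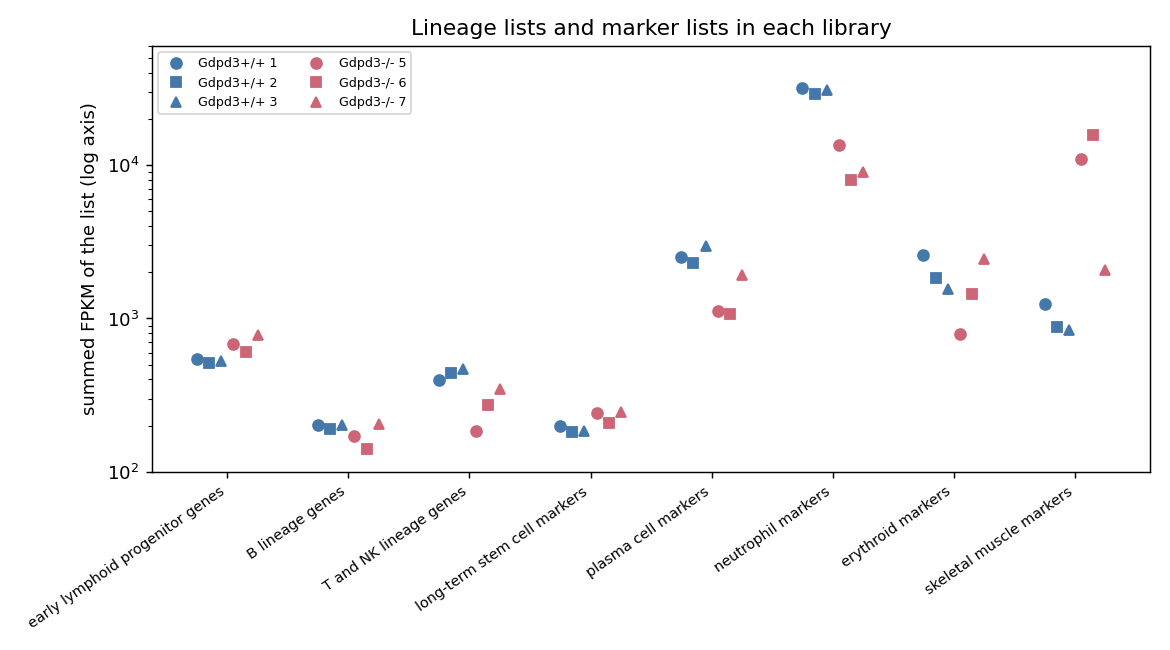
Summed FPKM of 3 lymphoid lists and 5 marker lists in each of the 6 libraries, on a log axis, with Gdpd3+/+ in blue and Gdpd3-/- in red. The early lymphoid sum is 515 to 541 FPKM in Gdpd3+/+ and 607 to 781 FPKM in Gdpd3-/- libraries. Its most abundant gene is Cd34 (mean 155 FPKM, log2 fold change 0.88), a marker of progenitors. The next, Ly6d (mean 104 FPKM), has a log2 fold change of -1.01. The B lineage sums overlap (191 to 203 against 140 to 207 FPKM). The T and NK sum, most of it Nkg7, is lower in Gdpd3-/- libraries (183 to 348 against 399 to 470 FPKM). Its other 19 genes sum to 21.9 to 34.4 FPKM in Gdpd3-/- against 13.0 to 16.7 FPKM in Gdpd3+/+ libraries. The muscle sum spreads most.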

How the data were processed

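RNA was amplified with the SMART-Seq v4 kit and sequenced as paired-end reads of 150 bases. According to the submitters' processing notes, the authors used Trimmomatic, Trim Galore, cutadapt 1.16, STAR 2.6.1a, featureCounts 1.6.1 and DESeq2 with build mm9. The authors deposited FPKM values per gene and library, and a table of their own comparison (fold changes and p-values), of which only the mean signal over the 6 libraries was read here. FPKM times gene length stepped in hundredths of a read count in every library, and the counts so recovered gave the authors' mean within 0.1% for 100% of 29209 genes. Members and lists were chosen with earlier results of these data known. Members are all named; from each list the genes called and the 2 with the highest mean are, except 1 gene that is not reported here. Limma 3.58.1 (R 4.3.3) took log2(FPKM + 0.1) as input and used an intensity trend; it covered the 24689 genes whose mean reached 0.05 FPKM, with p-values adjusted by Benjamini-Hochberg and called under 0.05, so fold changes of low genes are understated. The test was planned on FPKM, the deposited unit, and the count model of the authors was not run, although counts could be recovered. Voom on the recovered counts and median-of-ratios scaling were added as alternatives after the data were seen. The limma step was tested on simulated data. Exact permutation tests used scipy 1.17.1.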

Additional observations from a re-analysis of the deposited data

How the results depend on the processing

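No paired analysis was possible because the groups share no replicate number. The count of members called (1) became 0 with a pseudocount of 1, no filter on low values, no intensity trend or voom, and ran from 0 to 2 when single libraries were left out. The number of all genes called (422) was 225 with a pseudocount of 1, 673 with a mean of at least 1 FPKM, 153 without the trend and 677 with voom, and ran, when 1 library was left out, from 0 (Gdpd3+/+ replicate 1) to 3413 (Gdpd3-/- replicate 7). TMM turned the split of 270 higher and 152 lower calls into 117 and 241, quantile normalization into 119 and 206, median-of-ratios scaling into 115 and 230 and voom into 286 and 391. Dntt kept its direction but lost its call with a pseudocount of 1 (3.23, limma adjusted p 0.0547), no filter (3.85, 0.0905), no trend (3.85, 0.0776) and voom (3.73, 0.0586), and ran from 3.22 to 4.26 when 1 library was left out. The inner entry of Ebf1 ran from 1.88 to 2.498 when 1 library was left out and was called without Gdpd3-/- replicate 7 (2.41). Pax5 turned positive with a pseudocount of 1 (0.0047) and without Gdpd3-/- replicate 5 or 6 (0.13 each). It was -1.19 with a pseudocount of 0.01 and -1.84 with voom. Pax5 ran from -0.18 to 0.13 when 1 library was left out, but could not be tested without Gdpd3-/- replicate 7. Ikzf1, Tcf3, Satb1, Notch1, Il7r, Rag1, Rag2 and Ebf1 kept their direction and stayed uncalled wherever they could be tested. The causes were not tested.

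List counts were recomputed after the data were seen. Early lymphoid genes higher (3) were 1 with quantile normalization or no trend and 0 to 4 when 1 library was left out, and genes lower (0) reached 1. B lineage genes higher (1) were 0 with a pseudocount of 1, TMM, quantile, no trend, median-of-ratios and voom, and 0 to 2 when 1 library was left out. B lineage genes lower (1) were 0 with no filter or no trend, 2 with a mean of at least 1 FPKM or voom, and 0 to 4 when 1 library was left out. T and NK genes higher (1) were 0 with a pseudocount of 1, no filter or no trend, 2 with voom and 0 to 2 when 1 library was left out, and genes lower (0) reached 1. E protein and Ikaros genes higher (0) were 1 with a pseudocount of 0.01, no filter, a mean of at least 1 FPKM and voom, and 0 to 2 when 1 library was left out, and genes lower reached 1. Notch genes higher (2) were 1 with a pseudocount of 1, quantile or voom, 0 with no filter, TMM, no trend or median-of-ratios, and 0 to 2 when 1 library was left out, and genes lower reached 3. Genes of end joining or recombinase assistance lower (0) were 1 with TMM, median-of-ratios and voom, and 0 to 1 when 1 library was left out. IL-7 genes higher (1) were 0 with no filter, TMM, quantile, no trend and median-of-ratios, and 0 to 1 when 1 library was left out.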
